A study of Allium sativum with 18 samples.

Results

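The 201 genes described here peaked in the basal clove of dormant garlic bulbs without a matching rise in the storage clove. They were chosen on mean values of 3 libraries per group, in FPKM, a level scaled to the length of the gene and to the depth of the library. A member had a mean of at least 10 FPKM in dormant basal clove, at least 2 times its mean in both enlarging and germinating basal clove. Its mean in dormant storage clove also stayed below 2 times its mean in enlarging storage clove. The rule took 201 of 57561 genes, or 1.38% of the 14566 genes with a dormant basal mean of at least 10 FPKM. The rule thus capped the change between enlarging and dormant storage clove and set no limit on how strongly a member could be expressed there.

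RNA was sequenced from garlic (Allium sativum) of the single plant material named Chalingzipisuan in all 18 libraries, with 3 biological replicates in each of 6 groups per the series' design. The groups were basal clove of bulbs at the enlarging growth stage, of dormant bulbs and of germinant bulbs, and storage clove of bulbs at the same stages. Enlarging bulbs had been taken about a week after the flower stems emerged, germinant bulbs carried a shoot shorter than 5 cm, and the clove regions had been parted by hand. No genotype, treatment or age differed between the groups in the labels.

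A garlic clove is an axillary bud wrapped in a thick leaf that stores sugars, mainly as fructans, and sulphur compounds. At its base sits a short compressed stem with the root initials and the shoot bud, the region from which growth resumes when dormancy ends. Buds and seeds of many plants are known to hold proteins and transcripts against drying, cold and oxidation while they rest. The deposited table names genes by ID alone and does not pair any ID with a gene name or description, so no function is given for any member. The labelled tissues could not be checked against marker genes for the same reason.

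Reads assigned to genes, recovered from the steps of the values, ranged from 17933342 to 21897520 in the basal libraries and from 6540146 to 12988262 in the storage libraries, with the lowest totals in dormant storage clove. A gene with 3 reads and a coding length of 1 kb would stand at 0.137 FPKM at the highest of these totals and at 0.459 FPKM at the lowest, which covers counting error only. The third basal germinating library stood apart for these genes: it held the lowest value of its group for 184 of the 201 members (91.5%), against 53.8% of genes with a dormant basal mean of at least 10 FPKM. The rule favours this gap, since a low value there lowers the germinating mean and so helps a gene to be chosen. How far the choice made the gap was not tested. Without it the rule took 163 genes, of which 162 were members. Counts and medians that rest on germinating basal clove are given with it and, where computed, beside them without it. Without it the median member stood at 8.93 FPKM in that group. In whole-tissue RNA, fewer cells of a type and less RNA per cell cannot be told apart.

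The median member stood at 9.94 FPKM in enlarging, 26.3 FPKM in dormant and 7.44 FPKM in germinating basal clove. In storage clove the medians were 1.48, 1.24 and 1.76 FPKM at the same 3 stages. The libraries of dormant basal clove had member medians of 27.2, 29.8 and 24.2 FPKM, against 9.45, 9.71 and 10.1 FPKM in enlarging and 8.87, 9.26 and 5.01 FPKM in germinating basal clove. All 3 dormant libraries thus lay above the other 6 basal libraries, and the third germinating library lay below its group. Members took 0.472 ± 0.0199%, 1.34 ± 0.109% and 0.438 ± 0.138% of all assigned reads in enlarging, dormant and germinating basal clove (SD, n = 3 each). In the germinating group the libraries held 0.492%, 0.542% and 0.281%. These levels follow from how the genes were chosen and were not tested.

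**Figure D1:**
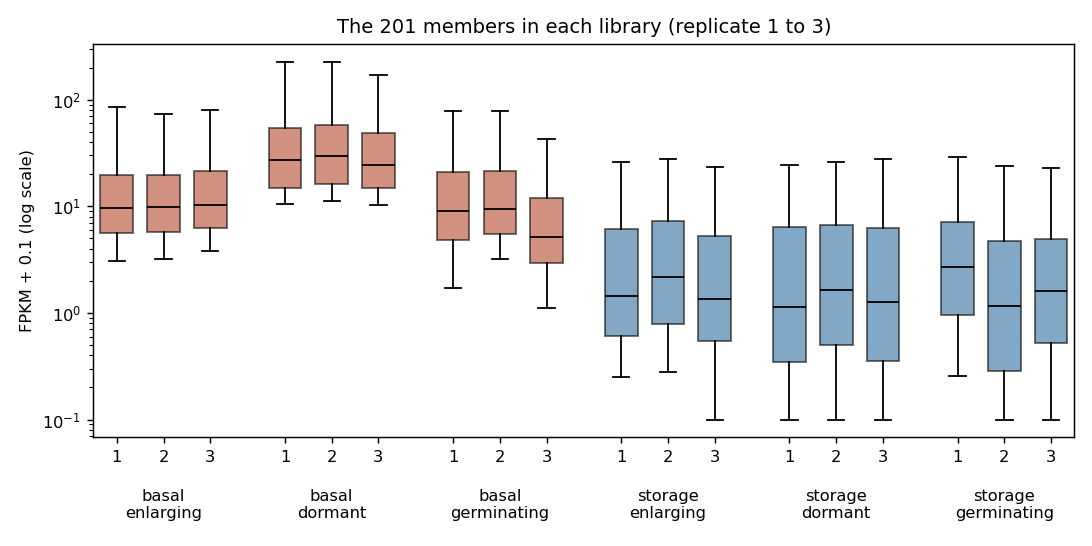
FPKM of the 201 members, plus 0.1 and on a log axis, in each of the 18 libraries (boxes: quartiles and median; whiskers: 5th and 95th percentiles; red, basal; blue, storage). The member medians of the dormant basal libraries lie between 24.2 and 29.8 FPKM, above those of all other libraries.

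Dormant basal means ran from 10.2 to 605.0 FPKM, with quartiles at 15.3 and 55.2 FPKM. Of the members, 56 stood at 50 FPKM or more, 26 at 100 or more and 12 at 200 or more. The dormant mean was 2.55 times the enlarging mean at the median (2.01 to 14.1 times) and 2.97 times the germinating mean (2.01 to 58.4 times; median 2.52 without the third germinating library). Against the higher of these, the median ratio was 2.33 and the largest was 6.09. Few peaks were steep: 68 members had a ratio below 2.2, 36 reached 3, 10 reached 4 and 3 reached 5. Just outside the limit, 113 genes that met the other conditions had a ratio of 1.8 to 2. The members nearest to the limit had ratios of 2.007 and 2.010, and the genes just short of it 1.998 and 1.997. The lowest dormant basal mean inside was 10.2 FPKM and the highest left out 9.91 FPKM, while the storage ratio of dormant to enlarging clove was 1.96 just inside its ceiling and 2.10 just outside.

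All 3 dormant values exceeded all enlarging and germinating basal values in 198 of 201 members, against 20.1% of the 14566 genes with a dormant basal mean of at least 10 FPKM, a count that the rule itself fixes. Values within a group were spread more widely for members than for genes of like dormant level. The median coefficient of variation was 11.8%, 12.4% and 33.1% for members in enlarging, dormant and germinating basal clove, against 6.84%, 6.40% and 11.5% for all genes with a dormant basal mean of at least 10 FPKM. Without the third germinating library the germinating values were 9.45% for members and 6.26% for those genes. The 2 sets were alike in dormant level only. Library medians of those genes were 28.6 to 28.7 FPKM in enlarging and 23.1 to 25.1 FPKM in germinating basal clove. Those of members were 9.45 to 10.1 and 5.01 to 9.26 FPKM, and whether this lower level goes with the wider spread was not tested.

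**Figure D2:**
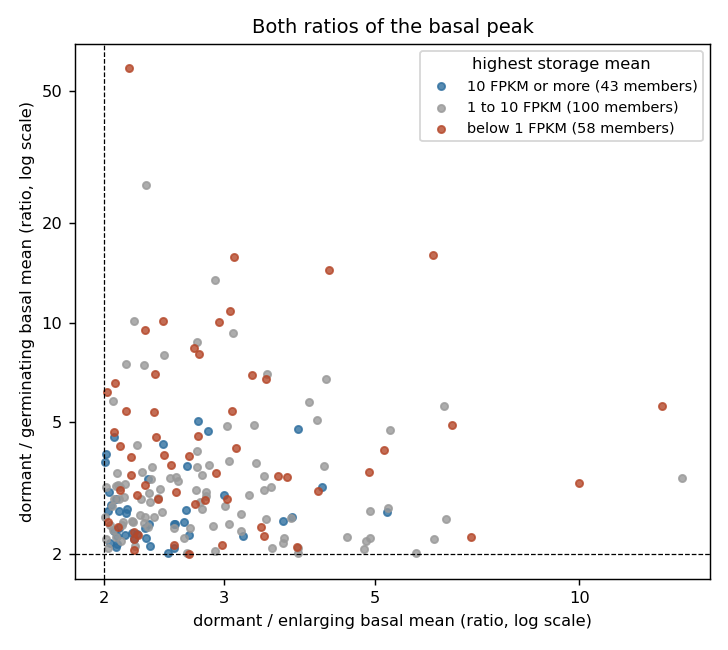
Ratio of the dormant to the enlarging basal mean (x axis, log scale) and to the germinating basal mean (y axis, log scale) for each of the 201 members, coloured by the highest of its storage means; dashed lines mark the limit of 2. Most points crowd near the limits, and the highest ratios are 14.1 over enlarging and 58.4 over germinating clove.

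Applying the rule to only 2 replicates of every group left a set of libraries that had no part in the choice. With replicate 1 left out, 200 genes were chosen, and dormant basal clove was the highest basal stage for 200 of them (100%) in the replicate 1 libraries, at least 2 times both others for 140 (70%). With replicate 2 left out it was highest for 195 of 199 genes (98.0%) and at least 2 times both for 111 (55.8%). With replicate 3 left out it was highest for 212 of 212 genes and at least 2 times both for 108 (50.9%). Dormant clove was thus the highest stage in the unused libraries for nearly every gene chosen, while the 2-fold limit was met by between 50.9% and 70% of them. Among all genes with a dormant basal mean of at least 10 FPKM, 34.7% to 35.9% were highest in dormant clove in those libraries and 1.63% to 1.65% met the 2-fold limit. The median ratio in the unused libraries was 2.31, 2.11 and 2.01 when replicates 1, 2 and 3 were left out.

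The most abundant member was Asa2G00397.1, with a coding length of 321 bases. It had 155, 109.5 and 105 FPKM in enlarging, 637, 675 and 503 FPKM in dormant and 245, 279.6 and 146 FPKM in germinating basal clove. In storage clove it had 2.69, 2.42 and 1.76 FPKM in enlarging, 1.43, 6.60 and 2.61 FPKM in dormant and 1.34, 0.480 and 2.40 FPKM in germinating bulbs. Its basal means were 123 ± 27.5, 605.0 ± 90.6 and 223 ± 69.1 FPKM (SD, n = 3 each), and the dormant values did not overlap those of either other stage. The dormant basal mean was 170.5 times the dormant storage mean, which rested on 24 reads over 3 libraries.

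Asa7G07029.1, next in abundance, differed from it in having a basal peak on top of clear expression in storage clove. It had 122, 105 and 112 FPKM in enlarging, 398, 379 and 309 FPKM in dormant and 185, 203 and 89.0 FPKM in germinating basal clove. In storage clove it had 64.6, 61.9 and 53.2 FPKM in enlarging, 100.04, 93.9 and 94.6 FPKM in dormant and 87.3, 78.6 and 65.0 FPKM in germinating bulbs. Dormant storage libraries were also the highest of their tissue, at a mean ratio to enlarging clove that stayed under the ceiling. The dormant basal mean of 362 ± 47.1 FPKM was 3.76 times the dormant storage mean of 96.2 ± 3.35 FPKM (SD, n = 3 each).

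By the ratio with 1 FPKM added to each mean, which gives less weight to low levels, Asa7G01645.1 and Asa4G00337.1 had the steepest peaks. By the plain ratio Asa2G02820.1 (6.09) and Asa1G02039.1 (5.61), named after their values were seen, stood among the 3 steepest, at dormant means of 12.6 and 13.1 FPKM. Asa7G01645.1 had 7.45, 8.82 and 12.7 FPKM in enlarging, 43.7, 92.6 and 47.0 FPKM in dormant and 9.59, 13.0 and 10.03 FPKM in germinating basal clove. The second dormant library lay far above the other dormant ones, yet the lowest dormant value still exceeded all 6 others. The dormant mean, 61.1 ± 27.3 FPKM (SD, n = 3), was 6.33 times the enlarging and 5.62 times the germinating mean. In storage clove the same gene had 7.01, 2.23 and 5.45 FPKM in enlarging, 0.511, 0.236 and 0.234 FPKM in dormant and 8.19, 6.43 and 9.33 FPKM in germinating bulbs, so that its lowest storage values came at the stage of its basal peak.

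Asa4G00337.1 had 7.52, 6.11 and 10.04 FPKM in enlarging, 57.1, 52.7 and 44.0 FPKM in dormant and 12.4, 11.5 and 7.32 FPKM in germinating basal clove. The dormant mean, 51.3 ± 6.65 FPKM (SD, n = 3), was 6.49 times the enlarging and 4.92 times the germinating mean. Its storage values ran from 0 to 0.508 FPKM, and the 3 dormant storage libraries held 4 reads in all. The gene was therefore near the limit of detection in storage clove at every stage.

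**Figure D3:**
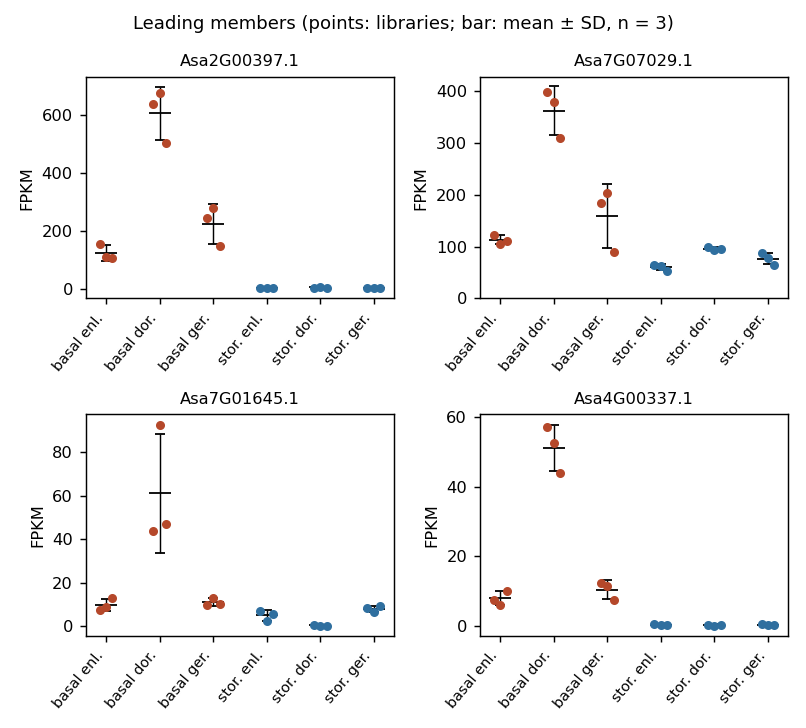
FPKM of the 2 most abundant members (top) and the 2 members with the largest ratio of dormant to the higher other basal mean after adding 1 FPKM to each (bottom) in each library (points), with mean and SD of 3 libraries (bars), for basal (red) and storage (blue) clove. Asa2G00397.1 and Asa4G00337.1 lie near 0 in storage clove, while Asa7G07029.1 averages 96.2 FPKM in dormant storage clove.

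Most members were higher in basal than in storage clove at every stage, by the widest margin in dormant bulbs. The median ratio of basal to storage means was 6.63 in enlarging, 22.4 in dormant and 5.22 in germinating bulbs. The same medians over all genes with a dormant basal mean of at least 10 FPKM were 1.05, 1.095 and 0.874. In enlarging bulbs all 3 basal values lay above all 3 storage values for 176 of 201 members (87.6%), against 40.4% of those genes. In dormant bulbs this held for 190 members (94.5%), against 45.4%, and in germinating bulbs for 148 (73.6%), against 26.7%. It held at all 3 stages for 147 members (73.1%), against 19.0%. Without the third basal germinating library the germinating count was 165 (82.1%, against 31.9%) and the median ratio 5.98. Because the rule asked for a high dormant basal level and capped the storage rise, these shares are a description and were not tested.

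Wide differences were common. The basal mean was at least 10 times the storage mean for 78 members in enlarging bulbs (38.8%, against 3.86% of genes with a dormant basal mean of at least 10 FPKM), 125 in dormant bulbs (62.2%, against 6.54%) and 72 in germinating bulbs (35.8%, against 5.41%; 79 without the third basal germinating library, or 39.3%, against 5.88%). A minority ran the other way: all 3 storage values lay above all 3 basal values for 15 members in enlarging, 7 in dormant and 10 in germinating bulbs. The dormant storage mean exceeded the dormant basal mean for 8 members, and for 19 it was at least 0.5 times as high. Shares over other genes were not computed for the 15, 7, 10 and 19, so nothing is read from these counts. The basal mean was the higher one for 180 members in enlarging bulbs (89.6%, against 54.1% of genes with a dormant basal mean of at least 10 FPKM). It was higher for 193 in dormant bulbs (96.0%, against 56.9%) and 173 in germinating bulbs (86.1%, against 39.4%). The 173 and the 10 above were not recomputed without the third basal germinating library.

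**Figure D4:**
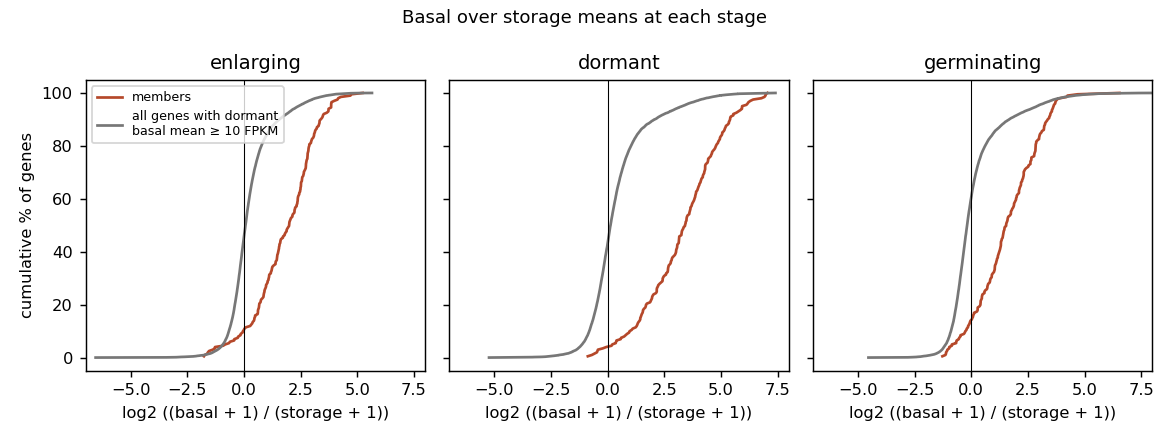
Cumulative share of genes (y axis, %) by the log2 ratio of the basal to the storage mean, each plus 1 FPKM (x axis), at each stage, for the 201 members (red) and for all 14566 genes with a dormant basal mean of at least 10 FPKM (grey). The red curve lies right of the grey one at all 3 stages over most of its length, and farthest in dormant bulbs, where the median plain ratios are 22.4 and 1.095.

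Grouped by the highest of their storage means, 58 members stayed below 1 FPKM in storage clove (28.9%, against 1.58% of genes with a dormant basal mean of at least 10 FPKM), 100 lay between 1 and 10 FPKM and 43 reached 10 FPKM or more (21.4%, against 87.3%). Dormant basal levels differed between these classes, with medians of 18.5, 27.9 and 54.6 FPKM from the lowest to the highest storage class. The peak over the higher of the other basal stages was about the same, with median ratios of 2.43, 2.34 and 2.21. Median dormant storage means were 0.209, 1.68 and 17.6 FPKM in the same classes. In 17 members no read was assigned in any dormant storage library; their dormant basal means ran from 11.5 to 59.9 FPKM. Set against 3 reads over the group, these were at least 33.8-fold higher in basal clove, with a median bound of 77.1-fold and a highest of 296-fold. Dormant storage reads were few throughout, with a median of 33 per member over 3 libraries, against 1820 in dormant basal clove.

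Within storage clove, the stage with the highest mean was enlarging for 58 members, dormant for 67 and germinating for 76. The dormant storage mean was above the enlarging one for 87 members, and at least 1.5 times it for 28. The ceiling of the rule bears on these counts and their shares over other genes were not computed, so nothing is read from them. The dormant storage mean was at most 0.5 times the enlarging one for 50 members (24.9%, against 4.86% of genes with a dormant basal mean of at least 10 FPKM), a comparison that the ceiling of the rule favours. The 2 sets also differed in storage level: 21.4% of members reached 10 FPKM in storage clove, against 87.3% of those genes. Over the 3 dormant storage libraries 36 members had 3 or fewer reads, so nothing is read from this gap.

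The storage libraries of germinating bulbs had no part in the choice of members, but the dormant ones did, since their mean had to stay below 2 times the enlarging one. Germinating against dormant storage clove was therefore tested on values that the choice had limited on the dormant side. The limma test on log2(FPKM + 1), fitted to all 18 libraries and 30530 genes, called a gene at a Benjamini-Hochberg adjusted p below 0.05, and all 201 members passed its filter on low values. Of the members, 33 rose and 41 fell in germinating relative to dormant storage clove, and 127 were not called. The share called was 36.8%, and that among all genes tested 59.7%, of which 30.8% rose and 29.0% fell. These shares do not compare like with like, since the members passed the filter through basal clove and many were low in storage clove. The median log2 difference was 0.05 over members and 0.01 over all genes tested. By storage class, 3 of the 58 lowest members rose and 0 fell (1 fell at an unadjusted limma p below 0.05, and voom called 0), 22 of the 100 in the middle rose and 19 fell, and 8 of the 43 highest rose and 22 fell. Called in either direction were 5.17%, 41.0% and 69.8% of the members in these classes, against 6.52%, 45.0% and 75.2% of the genes of the same storage class with a dormant basal mean of at least 10 FPKM. Within a class these shares in either direction were close to each other. By direction, 18.6% of members in the highest class rose and 51.2% fell, against 31.6% and 43.5% of those genes. In the middle class 22.0% rose and 19.0% fell, against 22.1% and 22.9%. In the lowest class 5.17% rose and 0.00% fell, against 6.52% and 0.00%. These differences were not tested. The first storage germinating library held the highest value of its group for 136 members (67.7%, against 46.8% of genes with a dormant basal mean of at least 10 FPKM). Without it 21 members rose and 42 fell (28.6% and 28.7% of all genes tested). With quantiles made equal between libraries, where the median over all genes tested was -0.14, 21 rose and 56 fell (26.1% and 36.3% of all genes tested). With voom on the recovered reads 14 rose and 32 fell (26.1% and 25.8% of all genes tested).

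Asa2G03094.1 rose most. It had 33.0, 26.7 and 22.1 FPKM in germinating storage clove, against 0.281, 1.04 and 0.257 FPKM in dormant storage clove. The groups lay far apart, although the dormant values rested on 12 reads. The log2 difference was 4.23 (SE 0.22, limma adjusted p = 1.8e-10). In basal clove the gene had 13.2, 13.9 and 16.9 FPKM in enlarging, 51.3, 80.4 and 52.5 FPKM in dormant and 17.8, 23.6 and 16.3 FPKM in germinating bulbs, so that it peaked at dormancy there and was lowest at dormancy in storage clove.

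Asa7G01645.1, described above for its steep basal peak, also rose in germinating relative to dormant storage clove, by 2.75 on the log2 scale (SE 0.31, limma adjusted p = 1.2e-06). Asa6G02688.1, with a coding length of 288 bases, had 45.1, 24.3 and 19.1 FPKM in germinating storage clove, against 11.7, 10.3 and 7.76 FPKM in dormant storage clove. The lowest germinating value lay above the highest dormant one, and the log2 difference was 1.41 (SE 0.30, limma adjusted p = 0.00078). In basal clove it had 102, 85.6 and 102 FPKM in enlarging, 264, 305 and 228 FPKM in dormant and 59.8, 56.6 and 41.3 FPKM in germinating bulbs.

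Asa1G02671.1 fell most among the members eligible to be named. It had 3.93, 5.28 and 2.83 FPKM in germinating storage clove, against 19.0, 18.5 and 22.8 FPKM in dormant storage clove. The log2 difference was -2.10 (SE 0.18, limma adjusted p = 3.3e-08), with no overlap. This gene was higher in storage than in basal clove when dormant, since its dormant basal values were 8.83, 11.1 and 11.6 FPKM. Asa1G04538.1 had 34.3, 28.4 and 28.1 FPKM in germinating storage clove, against 98.9, 101 and 95.3 FPKM in dormant storage clove. Its log2 difference was -1.68 (SE 0.15, limma adjusted p = 7.8e-08), and it too was lower in dormant basal clove, at 58.1, 58.3 and 65.0 FPKM, than in dormant storage clove.

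Germinating against enlarging storage clove compares the outer stages of that tissue. The enlarging mean had a part in the choice of members too, as the base of the ceiling on dormant storage clove. Of the members, 18 rose and 32 fell in germinating relative to enlarging clove, and 151 were not called. The share called was 24.9%, and that among all genes tested 53.3%, of which 24.2% rose and 29.1% fell. By storage class from the lowest up, 0.00%, 24.0% and 60.5% of members were called, against 1.30%, 35.8% and 69.8% of the genes of the same class with a dormant basal mean of at least 10 FPKM. The median log2 difference was -0.07 over members and -0.07 over all genes tested. Of the 58 members below 1 FPKM in storage clove, limma called 0, where few reads stood behind each value; 3 had an unadjusted p below 0.05, and voom called 0. The second storage enlarging library held the highest value of its group for 113 members (56.2%, against 42.6% of genes with a dormant basal mean of at least 10 FPKM). Without it 18 members rose and 30 fell (22.6% and 26.1% of all genes tested).

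Asa2G03094.1 also led the rise here, with the germinating values given above against 4.18, 3.33 and 2.66 FPKM in enlarging storage clove. The log2 difference was 2.68 (SE 0.22, limma adjusted p = 5.3e-08). Asa8G00391.1, with a coding length of 2781 bases, had 30.3, 25.8 and 23.8 FPKM in germinating storage clove, against 9.36, 12.1 and 12.5 FPKM in enlarging storage clove. These groups did not overlap either, and the log2 difference was 1.17 (SE 0.17, limma adjusted p = 2e-05). In basal clove it had 85.1, 92.0 and 92.1 FPKM in enlarging, 192, 198 and 189 FPKM in dormant and 78.0, 85.3 and 54.3 FPKM in germinating bulbs.

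The largest fall was that of Asa8G04155.1. It had 0.891, 0.133 and 0.333 FPKM in germinating storage clove, against 19.4, 14.9 and 15.6 FPKM in enlarging storage clove. The germinating values rested on 9 reads, and the log2 difference was -3.63 (SE 0.25, limma adjusted p = 6.3e-09). In dormant storage clove it stood between these, at 6.07, 5.86 and 4.10 FPKM, while dormant basal clove had 28.4, 34.9 and 26.7 FPKM. Asa1G02671.1 fell by 1.62 on the log2 scale (SE 0.18, limma adjusted p = 9.6e-07), against 14.4, 13.5 and 14.5 FPKM in enlarging storage clove.

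The rule capped both enlarging and germinating basal clove below the dormant level, which limits how far they can differ, but did not set them against each other. Of the members, 16 rose and 56 fell in germinating relative to enlarging basal clove, and 129 were not called. The share called was 35.8%, and that among all genes tested, which bear no such cap, 70.3%, of which 29.8% rose and 40.6% fell; nothing is read from that gap. The median log2 difference was -0.23 over members and -0.19 over all genes tested. Without the third basal germinating library, which was the lowest of its group for most members, 33 rose and 35 fell (29.0% and 37.9% of all genes tested). Without the first 9 rose and 57 fell (28.6% and 38.3%), and without the second 9 rose and 70 fell (28.7% and 40.1%). Scaling the libraries by median ratios gave 38 that rose and 30 that fell, and moved the median of all genes tested to 0.08, with 38.3% of them called higher and 30.1% lower. Falls thus outnumbered rises over all libraries, were about as many as rises without the third germinating library, and were fewer after scaling. Of the 58 members below 1 FPKM in storage clove, 4 rose and 26 fell (6.90% and 44.8%, against 34.3% and 29.6% of the genes of the same class with a dormant basal mean of at least 10 FPKM). Of the 100 members between 1 and 10 FPKM, 11 rose and 19 fell (11.0% and 19.0%, against 28.0% and 37.7%). Of the 43 members at 10 FPKM or more, 1 rose and 11 fell (2.33% and 25.6%, against 26.9% and 53.8%). Without the third germinating library the lowest class had 11 rises and 18 falls (19.0% and 31.0%, against 47.4% and 24.8%) and the highest 7 rises and 5 falls (16.3% and 11.6%, against 26.6% and 52.2%). These differences were not tested.

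Asa3G02784.1 rose most. It had 59.4, 72.7 and 27.6 FPKM in germinating basal clove, against 15.1, 9.71 and 13.7 FPKM in enlarging basal clove. The lowest germinating value, from the third library, still lay above all enlarging values, and the log2 difference was 1.88 (SE 0.36, limma adjusted p = 0.00019). Its dormant values, 206, 186 and 152 FPKM, gave the highest ratio of dormant to enlarging basal clove among the members, 14.1. Storage values were low throughout, from 0 to 2.72 FPKM.

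Asa3G02017.1 had 129.8, 126 and 52.6 FPKM in germinating basal clove, against 38.0, 33.1 and 37.2 FPKM in enlarging basal clove. The log2 difference was 1.37 (SE 0.48, limma adjusted p = 0.018). The third germinating library was again the lowest, and the call was lost without the first or the second germinating library, with an adjusted p of up to 0.081 over all alternatives. Dormant basal clove had 237, 215 and 171 FPKM and storage clove at most 6.18 FPKM.

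Among the members eligible to be named, Asa0G00431.1 fell most, while the largest fall over all members was -2.85 on the log2 scale. Asa0G00431.1 had 3.85, 3.28 and 1.06 FPKM in germinating basal clove, against 12.2, 13.5 and 11.7 FPKM in enlarging basal clove. The log2 difference was -1.94 (SE 0.37, limma adjusted p = 0.00023), with the groups far apart. Asa2G04200.1 had 2.73, 4.46 and 0.928 FPKM in germinating basal clove, against 13.5, 10.1 and 9.91 FPKM in enlarging basal clove. Its log2 difference was -1.83 (SE 0.31, limma adjusted p = 6.8e-05), again without overlap. Both stood at 2.31 FPKM or less in every storage library, and their dormant basal means were 27.6 ± 5.44 and 25.6 ± 4.67 FPKM (SD, n = 3 each).

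Calls in basal and storage clove were set side by side. Of the 33 members that rose in germinating relative to dormant storage clove, 3 rose, 3 fell and 27 were not called in germinating relative to enlarging basal clove (9.09%, 9.09% and 81.8%). Of all genes tested that rose in storage clove, 65.9%, 7.92% and 26.2% did so. Of the 41 members that fell in storage clove, 2 rose, 17 fell and 22 were not called in basal clove (4.88%, 41.5% and 53.7%), against 5.64%, 78.8% and 15.5% of all genes tested that fell there. A further 80 members were called in neither comparison (39.8%, against 17.1% of all genes tested). The cap on both basal stages bears on the members' basal calls. These comparisons share no library. The change in germinating relative to enlarging bulbs differed between basal and storage clove for 61 members (30.3%), more positive in basal clove for 20 and more negative for 41, against 37.1% of all genes tested, 14.8% in the positive and 22.3% in the negative direction, in a comparison added after the data had been seen.

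The ceiling on storage clove removed few genes. Without it the basal peak was met by 221 genes, and the 20 left out by the ceiling had medians of 6.28, 19.7 and 6.23 FPKM in enlarging, dormant and germinating basal clove and of 1.04, 5.01 and 1.35 FPKM in storage clove at the same stages. In 16 of the 20 (80.0%) all dormant basal values still lay above all dormant storage values, against 45.4% of genes with a dormant basal mean of at least 10 FPKM. The same rule turned round, a storage peak at dormancy with no upper limit on basal clove, was met by 137 genes, of which 5 also had the basal peak. No member could meet it, since it asks for a dormant storage mean of at least 2 times the enlarging one. Those 137 genes had medians of 15.5, 14.6 and 6.68 FPKM in basal and 9.92, 32.2 and 3.90 FPKM in storage clove in stage order.

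The gene models of members were longer at the median than those of the genes they were drawn from. The median coding length was 1119 bases (quartiles 570 and 1857), against 867 bases (474 and 1419) for all genes with a dormant basal mean of at least 10 FPKM. The IDs carry a digit after their prefix, whose meaning no source at hand states, and members were spread over all digits from 0 to 8, with 36 at digit 7 (17.9%, against 14.6% of genes with a dormant basal mean of at least 10 FPKM) and 11 at digit 3 (5.47%, against 9.20%). Members also lay next to each other in the numbering: 9 pairs had consecutive IDs. Each member was paired with the genes numbered next to it that had a dormant basal mean of at least 10 FPKM. Of these 138 pairings, in which a gene can count more than once, 18 were with another member (13.0%). Members made up 1.38% of all genes at that dormant level. Asa7G02004.1 and Asa7G02005.1 had dormant basal means of 274 and 164 FPKM, Asa4G01307.1 and Asa4G01308.1 of 158 and 107 FPKM. Asa2G03094.1, with the largest storage rise, was numbered next to Asa2G03093.1, which averaged 28.2 FPKM in dormant basal clove, 9.06 FPKM in germinating storage clove and 0 FPKM in dormant storage clove. Whether near-identical copies shared reads is not known from the files, and the pairs named here were chosen after their values were seen.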

How the data were processed

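The deposited values are FPKM, computed by the authors, in 1 table of 18 libraries. HISAT2 is named in the submitters' processing notes and has no version there. Counter, genome build, annotation and strand setting were not given in the sources used here. FPKM scales each library to its total, so a change in a few abundant genes moves all others. FPKM values rise in steps of 1 read, which gave library totals and gene lengths. Lengths were sought so that values were whole within 0.01 reads, so that this fit is no check of them. The reads recovered made up 99.99% of each total, and 95.2% of the lengths of 21276 well-read genes were multiples of 3, hence coding length.

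The members and lists were chosen with earlier results of these data known. Group means chose the 201 members. Tests used limma 3.58.1 in R 4.3.3 with a variance trend on log2(FPKM + 1), 6 group means over 18 libraries, 12 residual degrees of freedom, genes with at least 1 FPKM in at least 3 libraries, and Benjamini-Hochberg adjustment over 30530 genes. FPKM is not a count, and with the pseudocount of 1 log2 differences understate changes of low genes. The fit was tested on simulated data. Dormant against other basal stages, dormant against enlarging storage clove and basal against storage clove were described without a test. Replicate numbers were taken from the sample titles. Named genes were the 2 members with the highest dormant basal mean, the 2 with the largest ratio of dormant to the higher other basal mean (each plus 1 FPKM), and per comparison the 2 largest rises and 2 largest falls among called members whose groups did not overlap and whose higher mean was at least 10 FPKM. Lists by gene description could not be run, since the IDs carry no descriptions. Alternatives covered the pseudocount, the filter, scaling, voom on recovered reads, the replicate block, the limits of the rule and each library left out. Whether same-numbered libraries of different stages were paired within a tissue was checked from their deviations.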

Additional observations from a re-analysis of the deposited data

Results flagged for a closer look

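For 9 of the 14 named members the change in germinating relative to enlarging bulbs differed between basal and storage clove. Several of these members had been named for the largest called rises or falls in the basal or storage change that enters this difference. Others were named on germinating against dormant storage clove, which shares the germinating storage libraries. That choice favours a high count and small p values, so nothing is read from the count of 9. The difference between tissues was tested in the same limma fit, as a comparison added after the data had been seen, and was called for 30.3% of members and for 37.1% of all genes tested. Changes are log2 values of germinating minus enlarging bulbs, the difference is basal minus storage clove, and each p is limma's adjusted p for that difference unless said otherwise.

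Asa2G03094.1 stood at 0.36 in basal and rose, at 2.68, in storage clove, a difference of -2.32 (SE 0.32, adjusted p = 3.5e-05). Asa6G02688.1 fell in basal clove, at -0.88, and rose in storage clove, at 1.13, a difference of -2.02 (SE 0.43, adjusted p = 0.0016). Asa8G00391.1 stood at -0.33 in basal and 1.17 in storage clove, a difference of -1.50 (SE 0.24, adjusted p = 0.00014). The basal fall of Asa6G02688.1 was not called without basal germinating replicate 3 (adjusted p = 0.071) or with median-ratio scaling (adjusted p = 0.12), and its storage rise was not called when only the groups compared were fitted (adjusted p = 0.064). The storage rise was called for all 3 of these members. A basal rise was called for none of them over all libraries as deposited, and for Asa2G03094.1 with median-ratio scaling (0.69, adjusted p = 0.010).

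Asa8G04155.1 fell in both tissues, at -0.88 in basal and -3.63 in storage clove, a difference of 2.75 (SE 0.35, adjusted p = 2e-05). For Asa1G02671.1 the falls were -0.77 in basal and -1.62 in storage clove, a difference of 0.85 (SE 0.25, adjusted p = 0.014). For Asa1G04538.1 they were -0.78 in basal and -1.49 in storage clove, a difference of 0.72 (SE 0.21, adjusted p = 0.016). The storage fall was the deeper one in all 3. The basal fall of Asa8G04155.1 had an adjusted p of 0.052 with median-ratio scaling, and the difference for Asa1G02671.1 one of 0.096 with voom.

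Asa2G04200.1 fell in basal clove, at -1.83, and stood at -0.13 in storage clove, a difference of -1.70 (SE 0.44, adjusted p = 0.0066). Asa0G00431.1 fell in basal clove, at -1.94, and stood at -0.44 in storage clove, a difference of -1.50 (SE 0.53, adjusted p = 0.036). Asa2G00397.1 stood at 0.83 in basal and -0.52 in storage clove, with neither called, and its difference of 1.35 (SE 0.51) had an adjusted p of 0.048. Its basal change had an adjusted p of 0.0503 and was called in 12 of the 29 alternatives, among them without basal germinating replicate 3 (adjusted p = 0.018) and with voom (adjusted p = 0.0016). With the replicate block the difference was not called (adjusted p = 0.059). For Asa0G00431.1 the call was lost without any 1 of 8 libraries (adjusted p 0.0545 to 0.0972): each basal enlarging library, storage enlarging replicate 1 or 3, basal germinating replicate 3, or storage germinating replicate 2 or 3. For Asa2G00397.1 it was lost without any 1 of 13 libraries (adjusted p 0.0512 to 0.123): each basal dormant or storage enlarging library, basal enlarging replicate 2 or 3, storage dormant replicate 3, or germinating replicate 1 or 2 of either tissue. The storage values of these 3 members rested on few reads, and the adjusted p of the difference reached 0.35, 0.38 and 0.38 over the alternatives tried, in the order given.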

How the results depend on the processing

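The number of members follows the limits of the rule: 793 genes met a fold of 1.5, 36 a fold of 3 and 122 a minimum of 20 FPKM, and leaving out 1 library gave 163 to 242. In germinating against dormant storage clove, 21 members rose after quantile normalization (26.1% of all genes tested) and 14 with voom on recovered reads (26.1%). With 1 library left out, 21 to 45 rose (28.6% to 31.5% of all genes tested). In germinating against enlarging basal clove, 9 rose with a pseudocount of 0.1 (28.6% of all genes tested). With median-ratio scaling 38 rose and 30 fell (38.3% and 30.1%). With 1 library left out, 9 to 33 rose and 35 to 70 fell there (27.9% to 29.9% and 37.9% to 40.9% of all genes tested). An alternative chosen after seeing the data left out the third basal germinating and the second storage enlarging library together. It gave 34 rises and 37 falls there (29.1% and 38.0% of all genes tested). Values that turned sign, none of them called, were those of germinating minus enlarging storage clove for Asa0G00431.1 (-0.82 to 0.029 with 1 library left out, and 0.029 without the pair named), Asa2G04200.1 (-0.34 to 0.069) and Asa3G02017.1 (-0.099 to 0.99), and germinating minus enlarging basal clove for Asa8G00391.1 (0.014 with median-ratio scaling). The cause was not tested. Within a tissue, same-numbered libraries of the stages compared did not deviate together (correlations from -0.187 to 0.029), so no pairing by number was seen there. Basal and storage libraries of the same number and stage were not checked in this way, so a pairing between tissues is not known. With the replicate block 35 members rose and 42 fell in germinating against dormant storage clove (30.6% and 28.8% of all genes tested). The counts were 18 and 32 in germinating against enlarging storage clove (24.0% and 28.8%), and 17 and 55 in germinating against enlarging basal clove (29.7% and 40.5%). The depth of dormant storage clove limits what can be said of members with few reads there.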
